A study of Mus musculus with 6 samples.

Results

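The genes described here are 10 genes that mark adipose progenitors and fibroblasts: Pdgfra, Cd34, Ly6a, Cd55, Dpp4, Pi16, Wnt2, Dlk1, Dcn and Lum. They were taken by symbol from a table of 35976 rows, and each symbol had a single row. BAT (brown adipose tissue) was sequenced from 3 WT mice and 3 sST2-KO mice, labelled ST2-KO by the submitters. Both groups were 10-week-old males on the C57BL/6J background and came from crosses of heterozygous mice. Both had their BAT surgically denervated and were then held at 10 °C for 8 h, so neither group was innervated or kept warm. In the KO mice, CRISPR/Cas9 had removed intronic sequence of Il1rl1 in the germline, so the deletion was not limited to fat. The comparison asks how BAT that lacks sST2, the soluble product of Il1rl1, differs from WT BAT in the cold. The libraries are called WT 1 to WT 3 and KO 1 to KO 3.

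Adipose tissue holds, beside its lipid-filled cells, a stroma of fibroblast-like cells that express the receptor Pdgfra, and new adipocytes arise from some of them. A population in the connective tissue around the fat lobules, the interstitial progenitors, is known by Dpp4, Pi16, Cd55 and Wnt2, whereas cells nearer to the fat, the committed preadipocytes, are known by Icam1. Dlk1, also called Pref-1, is made by preadipocytes and lost as they become adipocytes, and Dcn and Lum encode proteoglycans that bind collagen fibrils.

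All 10 genes were detected in every library and all were tested. Of these, Dlk1 fell in sST2-KO BAT, by 1.83 on the log2 scale (3.56-fold), and the other 9 did not pass the test. Pi16 had a difference of the same size, a log2 fold change of -1.88, with larger spread. Ly6a, the most abundant of the 10, had a log2 fold change of 0.94 and Cd34 one of 0.60, whereas Pdgfra, Cd55, Dpp4, Wnt2, Dcn and Lum overlapped between the groups and had log2 fold changes between -0.84 and 0.27.

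A gene was called where it differed by over 2-fold and edgeR's quasi-likelihood test, adjusted by Benjamini-Hochberg over the 14542 genes tested, gave a p under 0.05. By this rule 0 of the 10 genes were called higher (0 also with DESeq2, and 1, Ly6a, at an unadjusted p under 0.05) and 1 was called lower, where 9.04% of all genes tested were called higher, 7.10% lower and 16.1% in either direction. Without the minimum fold, the same 1 gene passed, against 19.6% of all genes. The groups did not overlap in 2 of the 10 genes, Pi16 and Dlk1, both lower in sST2-KO. Among all genes tested the groups did not overlap in 41.5%, which divides into 19.7% lower and 21.8% higher in sST2-KO. The fitted change was below 0 in 7 of the 10 genes and in 48.0% of all genes. The median log2 fold change was -0.44 over the 10 genes and 0.034 over all genes tested.

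**Figure D1:**
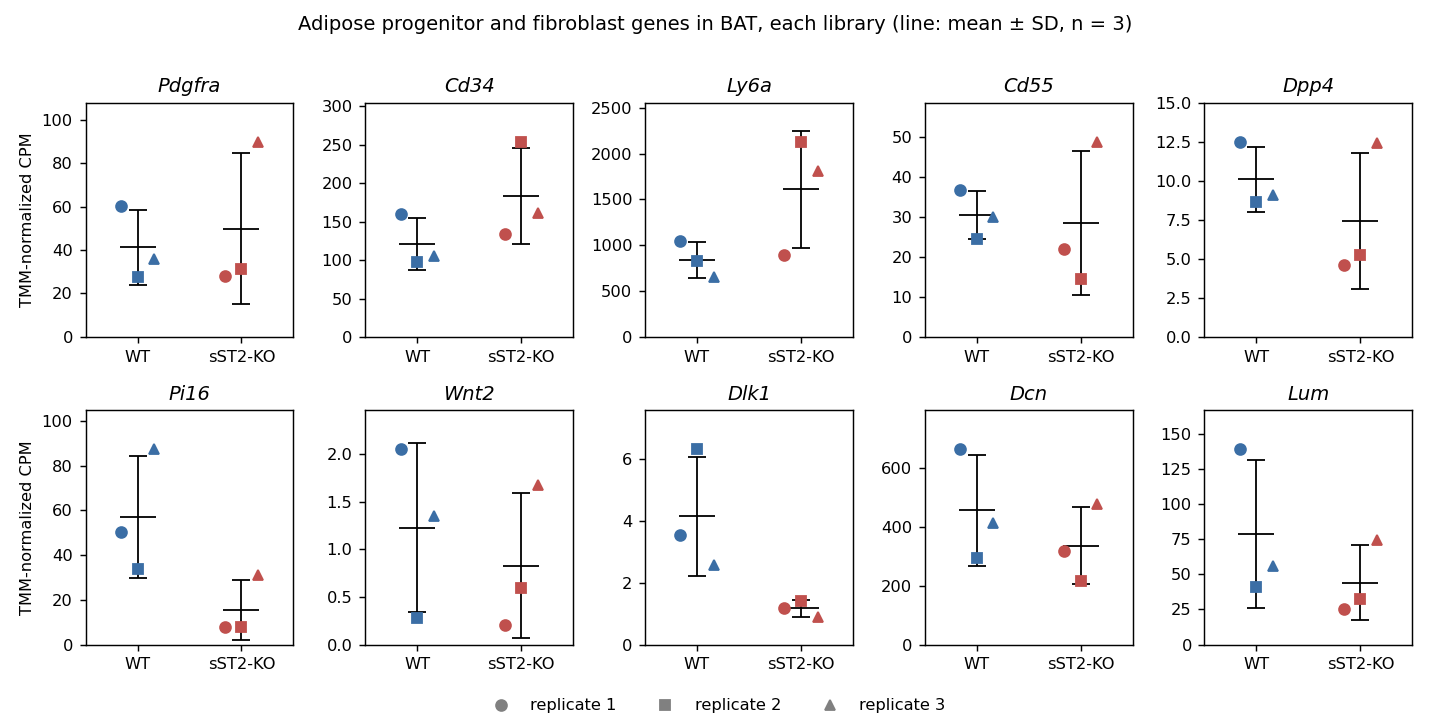
TMM-normalized CPM (vertical axes, linear, from 0) of the 10 genes in WT and sST2-KO BAT. Each point is 1 library, its shape gives the replicate number, and the line and bars are the mean ± SD of 3 libraries. The groups are apart in Pi16 and Dlk1, and in 6 of the panels WT 1 and KO 3 are the highest libraries of their groups.

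The libraries held 8159442 to 12874809 counts. The targeted gene, Il1rl1, had 19, 19 and 6 counts in WT 1 to WT 3 and 55, 69 and 142 in KO 1 to KO 3, but counts per gene pool sST2 with the membrane receptor ST2L and so do not check the genotype. Brown adipocyte genes were present and lower in sST2-KO, with 9 of 9 called (1 without WT 3 and 3 without WT 2), among them Ucp1, the uncoupling protein of brown fat, at 5229 to 10522 CPM in WT and 153 to 1042 CPM in sST2-KO. Skeletal muscle genes, all 18 of the list detected, summed to 1581 CPM in WT 1, to 103 and 88.4 in WT 2 and WT 3 and to 7994, 4349 and 18417 in KO 1 to KO 3. WT 1 and KO 3 were thus the richest in muscle RNA of their groups. In the T cell list 10 of 11 genes were called higher (5 without WT 3), and its sum was 18.3 to 20.4 CPM in WT and 149 to 189 CPM in sST2-KO. WT 2 stood apart by liver RNA. Liver genes other than Hp, which fat also makes, summed to 5784 CPM in WT 2 and to 10.1 to 52.6 CPM in the other libraries, and Alb, the albumin gene, had 33870 counts in WT 2. KO 3 stood apart by its share of mitochondrial counts, 6.80% against 11.8% to 16.6% elsewhere. Since all values are from whole tissue, fewer cells of a type and less RNA per cell cannot be told apart.

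Dlk1 and Pi16 are the genes whose groups do not overlap, and the sequence before their start sites is shown so that their promoters can be read beside these values. Both are on the plus strand. RefSeq gives the 250 bases before the start of Dlk1 in GRCm38.p6 as chr12:109452573-109452822 and those of Pi16 as chr17:29318632-29318881. Capitals mark, in Dlk1, TGACG, the core letters of the site that Creb proteins bind, which begins 106 bases before the start. In Pi16 they mark CCAAT, the letters of the box that NF-Y binds, which begins 64 bases before the start.
Dlk1: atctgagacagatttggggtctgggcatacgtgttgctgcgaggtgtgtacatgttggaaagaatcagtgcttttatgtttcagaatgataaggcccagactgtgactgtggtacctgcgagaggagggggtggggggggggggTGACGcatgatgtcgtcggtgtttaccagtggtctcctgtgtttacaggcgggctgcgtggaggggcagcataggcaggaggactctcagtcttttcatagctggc
Pi16: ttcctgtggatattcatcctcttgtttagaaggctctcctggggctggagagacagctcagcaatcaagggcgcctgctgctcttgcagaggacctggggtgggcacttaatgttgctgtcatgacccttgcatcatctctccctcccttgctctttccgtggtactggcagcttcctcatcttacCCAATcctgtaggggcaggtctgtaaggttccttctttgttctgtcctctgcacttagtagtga

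Windows of 300 bases (250 before to 50 after the start) were given for 7 of the 10 genes, and those of Ly6a, Dcn and Lum are not shown. Both strands were searched for 5 motifs. TGACG was in the windows of Dlk1, Pdgfra and Cd55 (3 of 7) and in 20.8% of all 32851 windows, and CCAAT was in those of Pi16 and Wnt2 (2 of 7) and in 37.4% of all. The GC box GGGCGG was found in Cd55 and Wnt2 (2 of 7, against 35.7% of all windows), and TATAAA in Dpp4 (1 of 7, against 13.6%). TTCNNNGAA, the letters of a Stat site, was in none of the 7 and in 8.30% of all windows. A match of letters is no evidence of binding, and no gene was chosen or tested by these motifs.

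Pdgfra encodes the receptor for platelet-derived growth factors that marks most fibroblast-like cells of fat. It lies on chromosome 5 of GRCm39 from 75311994 to 75358876, plus strand, with Gm42802 and Gm42803 on the opposite strand. Its level was 60.4, 27.5 and 35.8 CPM in WT 1 to WT 3 and 28.2, 31.3 and 89.8 CPM in KO 1 to KO 3, from 264 to 909 counts. KO 3 was higher than all other libraries and KO 1 and KO 2 lay inside the WT range, so the groups overlapped. The means were 41.2 ± 17.1 CPM in WT and 49.8 ± 34.7 CPM in sST2-KO (SD, n = 3 each), and the log2 fold change was 0.27 (SE 0.49, adjusted p = 0.727 by edgeR). Without KO 3 this value was -0.48, so the sign rested on 1 library.

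Among the other PDGF genes, 1 of 5 was called. Pdgfa, the ligand that binds only this receptor among the PDGF receptors, was at 6.72, 10.6 and 8.26 CPM in WT and at 20.7, 24.2 and 23.2 CPM in sST2-KO. Every KO library was above every WT library, and Pdgfa rose by a log2 fold change of 1.41 (SE 0.24, adjusted p = 0.0150 by edgeR's quasi-likelihood test, 0.0678 without WT 3). Pdgfb, a ligand made by endothelial cells, was at 81.3 to 86.9 CPM in WT and 42.3 to 76.2 CPM in sST2-KO, with a log2 fold change of -0.57 (SE 0.24, adjusted p = 0.127 by edgeR). For Pdgfc the log2 fold change was 0.64 (SE 0.46), for Pdgfd -0.20 (SE 0.25) and for Pdgfrb, the receptor of pericytes, -0.16 (SE 0.21). These 3 genes overlapped between the groups, and their adjusted p values from edgeR were 0.352, 0.597 and 0.624.

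Cd34 and Ly6a are surface proteins used to sort adipose progenitors, and both are also made by endothelial cells. Cd34 encodes a sialomucin (chromosome 1, 194621029 to 194647172, plus strand), and Gm16897 overlaps it on the opposite strand. Its level was 159, 97.3 and 105 CPM in WT 1 to WT 3 and 134, 254 and 162 CPM in KO 1 to KO 3. KO 2 was the highest library and KO 1 lay below WT 1. The means were 121 ± 33.7 and 183 ± 62.8 CPM (SD, n = 3 each), a log2 fold change of 0.60 (SE 0.31, adjusted p = 0.203 by edgeR).

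Ly6a encodes Sca-1, a small lipid-anchored protein that is also found on T cells and is induced by interferons (chromosome 15, 74863840 to 74869880, minus strand, with Gm28068 on the opposite strand). It was at 1045, 827 and 651 CPM in WT 1 to WT 3 and at 896, 2128 and 1806 CPM in KO 1 to KO 3. KO 2 and KO 3 were above the whole WT range, and KO 1 lay inside it. Its log2 fold change was 0.94 (SE 0.38, adjusted p = 0.122 and unadjusted p = 0.0410 by edgeR's quasi-likelihood test). Ly6a made up 46.8% to 60.8% of the summed CPM of the 10 genes in WT libraries and 62.3% to 79.1% in KO libraries.

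The endothelial list was also highest in KO 2, at a sum of 2930 CPM against 1755 and 2053 CPM in KO 3 and KO 1 and 1741 to 2143 CPM in WT. Of its 12 genes, 2 were called higher and 1 lower. T cell genes were higher in all 3 KO libraries, but not most in KO 2. The part of these cells in the levels of Cd34 and Ly6a was not tested.

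Cd55 encodes a protein that shields cells from complement (chromosome 1, 130366469 to 130390926, minus strand, with Gm16083 on the opposite strand). It was at 36.7, 24.6 and 30.1 CPM in WT 1 to WT 3 and at 22.0, 14.6 and 48.8 CPM in KO 1 to KO 3. KO 1 and KO 2 lay below the WT range and KO 3 above it. The fit gave a log2 fold change of -0.10 (SE 0.42, adjusted p = 0.889 by edgeR), and it took the opposite sign, 0.18, when libraries were scaled by total counts. The paralog Cd55b, 15653 bases away, had 1 count in total, so few reads were assigned to the copy, although reads that fit both could have been dropped in counting.

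Dpp4 encodes a surface peptidase that trims peptide hormones and chemokines and is the defining marker of interstitial progenitors (chromosome 2, 62159798 to 62242576, minus strand). Gm13561 and Gm75479 overlap it on the opposite strand. Its level was 12.5, 8.67 and 9.12 CPM in WT 1 to WT 3 and 4.60, 5.22 and 12.4 CPM in KO 1 to KO 3. KO 1 and KO 2 lay below all WT libraries and KO 3 was close to the highest library, WT 1. Its log2 fold change was -0.45 (SE 0.42, adjusted p = 0.481 by edgeR).

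Pi16 encodes a secreted peptidase inhibitor-like protein and marks fibroblasts of connective tissue in many organs (chromosome 17, 29536654 to 29549567, plus strand, with Gm46603 on the opposite strand). It had 540, 357 and 708 counts in WT 1 to WT 3 and 115, 65 and 313 in KO 1 to KO 3. These correspond to 50.4, 33.6 and 87.3 CPM in WT and 8.01, 7.71 and 30.9 CPM in sST2-KO. All KO libraries lay below all WT libraries, but KO 3, the highest, was close to WT 2, the lowest. The means were 57.1 ± 27.4 and 15.5 ± 13.3 CPM (SD, n = 3 each), 3.67-fold lower in sST2-KO by the fit.

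The log2 fold change of Pi16 was -1.88 (SE 0.61), and its adjusted p of 0.0667 by edgeR's quasi-likelihood test missed the threshold (unadjusted p = 0.0159). It passed with DESeq2 (adjusted p = 0.00815), with all genes kept (edgeR, 0.0411) and without KO 3 (edgeR, 0.0199, with a log2 fold change of -2.86). Leaving out 1 of the other libraries gave adjusted p values from 0.0861 to 0.217 by edgeR.

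Wnt2 encodes a secreted Wnt ligand (chromosome 6, 17985468 to 18031892, minus strand). It was the least abundant of the 10, with 22, 3 and 11 counts in WT 1 to WT 3 and 3, 5 and 17 in KO 1 to KO 3. At this depth its level of 2.05, 0.283 and 1.36 CPM in WT and 0.209, 0.593 and 1.68 CPM in sST2-KO differed more within each group than between them. Its log2 fold change was -0.60 (SE 0.86, adjusted p = 0.653 by edgeR), and no difference was detectable. Without WT 1 the value was 0.024.

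Of 18 further Wnt ligands only Wnt5a, Wnt9a and Wnt11 had enough counts to be tested. Their log2 fold changes were -0.24, -0.42 and -0.58, and edgeR called 0 of the 3, with 0 at an unadjusted p under 0.05. Wnt4, which the filter left out, had 1, 2 and 1 counts in WT 1 to WT 3 and 26, 5 and 33 in KO 1 to KO 3, without overlap. It was called higher with DESeq2 (adjusted p = 0.00433), with no filter (edgeR, 0.0151) and without KO 2 (edgeR, 0.0201), and was picked for naming after its values were seen. Wnt9b, Wnt2b and Wnt8b, also left out by the filter and picked after their values were seen, were lower in sST2-KO without overlap in CPM. Among all genes tested 41.5% did not overlap. Wnt9b had 9, 17 and 10 counts in WT and 4, 6 and 5 in sST2-KO. Wnt2b had 9, 6 and 7 counts against 8, 2 and 5, which overlap, and its CPM were 0.565 to 0.863 in WT and 0.237 to 0.558 in sST2-KO. Wnt8b had 1, 1 and 2 counts in WT and 0 in every KO library. These counts are too low to read a direction from. Of 10 secreted Wnt inhibitors, 4 were tested and edgeR called none, with 0 at an unadjusted p under 0.05 and 0 with DESeq2. Their median log2 fold change of 0.72 rested on KO 3, without which it was -0.80, and all 4, Sfrp1, Sfrp2, Sfrp4 and Dkk3, were highest in WT 1 and KO 3 of their groups. Frzb, also picked after its values were seen, had 12, 8 and 8 counts in WT and 1, 2 and 2 in sST2-KO, and was called lower with no filter (adjusted p = 0.0432 by edgeR).

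Dlk1 encodes a membrane protein of the Delta-like family whose shed form holds preadipocytes back from becoming adipocytes. It lies at the end of an imprinted gene cluster (chromosome 12, 109418749 to 109429262, plus strand) and overlaps no annotated gene. It had 38, 67 and 21 counts in WT 1 to WT 3 and 17, 12 and 9 in KO 1 to KO 3, or 3.54, 6.31 and 2.59 CPM in WT and 1.18, 1.42 and 0.889 CPM in sST2-KO. Every KO library lay below every WT library, and KO 3, which was among the highest for most of the 10 genes, was here the lowest. The highest, WT 2, was the library with liver RNA, whose part in the level of Dlk1 was not tested. The means were 4.15 ± 1.93 and 1.17 ± 0.268 CPM (SD, n = 3 each).

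Dlk1 fell by 1.83 on the log2 scale in sST2-KO BAT (SE 0.44, adjusted p = 0.0296 by edgeR's quasi-likelihood test). The call rested on all 6 libraries, since leaving out any 1 of them gave an adjusted p between 0.0506 and 0.0889 by edgeR, with log2 fold changes from -2.08 to -1.40, the smallest change without WT 2 (-1.40, 0.0889). With the replicate number as a block, the adjusted p was 0.0693. DESeq2 gave 0.00630.

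The imprinted cluster that Dlk1 opens also holds the maternally expressed RNAs Meg3, Rian and Mirg, and 0 of these 3 were called, with 0 at an unadjusted p under 0.05 and 0 with DESeq2. Meg3 was at 65.1, 44.2 and 43.3 CPM in WT 1 to WT 3 and at 15.1, 30.4 and 47.2 CPM in KO 1 to KO 3, so its groups overlapped. The log2 fold change was -0.72 for Meg3 (SE 0.39), -0.10 for Rian (SE 0.54) and 0.75 for Mirg (SE 0.45), with adjusted p values of 0.230, 0.911 and 0.275 by edgeR. Rian was at 0.14 when scaled by total counts. Rtl1 and Dio3, the other genes of the cluster in the list, had too few counts to be tested. Of the Notch ligands and receptors, which are relatives and partners of the Delta-like proteins, 8 of 10 were tested and edgeR called none, with 1 at an unadjusted p under 0.05. That gene, Notch2, was named after its values were seen. It was at 18.7 to 25.8 CPM in WT and 31.8, 32.9 and 80.5 CPM in KO 1 to KO 3, without overlap, a log2 fold change of 1.20 (SE 0.39, adjusted p = 0.0662 by edgeR). Notch2 passed with DESeq2 (0.0257), with no filter (0.0493), with total counts (0.0458) and without KO 1 (0.0498), and was at 0.61 without KO 3.

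Dcn encodes decorin and Lum encodes lumican, leucine-rich proteoglycans that space collagen fibrils, and they are neighbours on chromosome 10. Dcn runs from 97315275 to 97358155 and Lum from 97400990 to 97408577, both on the plus strand, with 42834 bases between them. Dcn was at 662, 294 and 412 CPM in WT 1 to WT 3 and at 318, 214 and 475 CPM in KO 1 to KO 3. KO 2 was the lowest library and KO 3 the second highest. The log2 fold change was -0.44 (SE 0.39, adjusted p = 0.461 by edgeR).

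Lum was at 139, 40.6 and 56.2 CPM in WT 1 to WT 3 and at 25.1, 32.5 and 74.5 CPM in KO 1 to KO 3. WT 1 stood far above the other WT libraries, and KO 1 was the lowest of all. The log2 fold change was -0.84 (SE 0.55, adjusted p = 0.314 by edgeR), and without WT 1 it was -0.14. The gene that follows Lum on the chromosome, Kera, a proteoglycan of the cornea, had 0 counts in all libraries. Of 15 further genes of the small leucine-rich proteoglycan family 9 were tested and none was called by edgeR or DESeq2, with 2 lower at an unadjusted p under 0.05. Their median log2 fold change was -0.43.

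**Figure D2:**
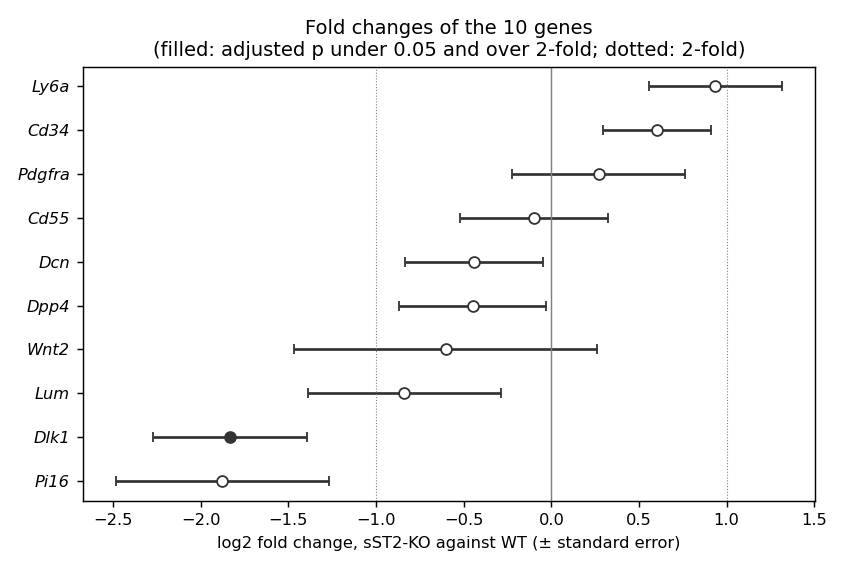
Log2 fold change of sST2-KO against WT for the 10 genes (horizontal axis), each with its standard error from edgeR's quasi-likelihood fit. The filled point, Dlk1, passed the call at over 2-fold, and Pi16 at -1.88 has a wider bar.

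Levels can be compared between genes only per length, and were set as CPM per kb of merged exons. In WT BAT Ly6a was highest at 181 ± 42.5, followed by Dcn at 35.0 ± 14.4, Lum at 12.2 ± 8.23, Cd34 at 10.1 ± 2.82 and Pi16 at 8.97 ± 4.31 CPM per kb (SD, n = 3 each). Then came Cd55 at 5.15, Pdgfra at 3.35, Dpp4 at 1.15, Dlk1 at 0.688 and Wnt2 at 0.0979 CPM per kb. Ly6a stood clear of Dcn, Dcn of Lum, Pdgfra of Dpp4 and Dlk1 of Wnt2, and all other neighbours in this order overlapped in their libraries.

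In sST2-KO BAT Ly6a was again highest, at 346 ± 138 CPM per kb (SD, n = 3), and Wnt2 lowest, at 0.0658. Pi16 stood 5th in WT and 7th in sST2-KO, where its mean level of 2.44 CPM per kb came after Cd55 at 4.81 and Pdgfra at 4.04. From Dcn (25.8) through Cd34 (15.3), Lum (6.86), Cd55, Pdgfra and Pi16 to Dpp4 (0.845 CPM per kb), neighbours overlapped, whereas Ly6a, Dlk1 (0.193) and Wnt2 each stood clear. With the length of the canonical transcript in place of merged exons, Cd34 came before Lum in WT and before Dcn in sST2-KO. On this length Dlk1 and Wnt2 had means of 0.260 and 0.232 CPM per kb in sST2-KO and overlapped in their libraries. Which neighbours stood clear thus depended on the length used.

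The spread within the groups was shared by many of the genes. Pdgfra, Cd55, Dpp4, Wnt2, Dcn and Lum, 6 of the 10, were highest in WT 1 among WT libraries and also highest in KO 3 among KO libraries, which held for 18.1% of all genes tested. The same pair was highest for 21 of 28 fibroblast and matrix genes, such as Col1a1 and Col3a1 of the collagen fibrils, and for 7 of 12 further interstitial progenitor genes. Within their groups WT 1 and KO 3 also had the most skeletal muscle RNA, although WT 1 had less of it than any KO library. Macrophage genes were highest in the same libraries, at 896 CPM in WT 1 (641 and 776 in the other WT) and 2852 CPM in KO 3 (784 and 929 in the other KO). The part of muscle, of the connective tissue around it and of macrophages was not tested.

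Tendon and fascia genes, of which 3 of 5 were tested, were low. Their sum was 4.94, 4.81 and 1.85 CPM in WT 1 to WT 3 and 6.55, 5.22 and 12.0 CPM in KO 1 to KO 3. Of the 7 mesothelium genes Lrrn4 made up most of the sum, at 3.46 to 28.0 CPM. The other 6, among them the defining markers Msln and Upk3b, summed to 0.187, 0 and 0 CPM in WT 1 to WT 3 and to 1.25, 0.119 and 2.57 CPM in KO 1 to KO 3. Without WT 1 and KO 3, Wnt2 was not tested, and the rest of the 10 genes had a median log2 fold change of -0.59. This median is not over the same genes as the -0.44 of all 10. The log2 fold change of Pi16 was then -2.95 (adjusted p = 0.0260 by edgeR) and that of Dlk1 was -1.80 (0.0896).

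**Figure D3:**
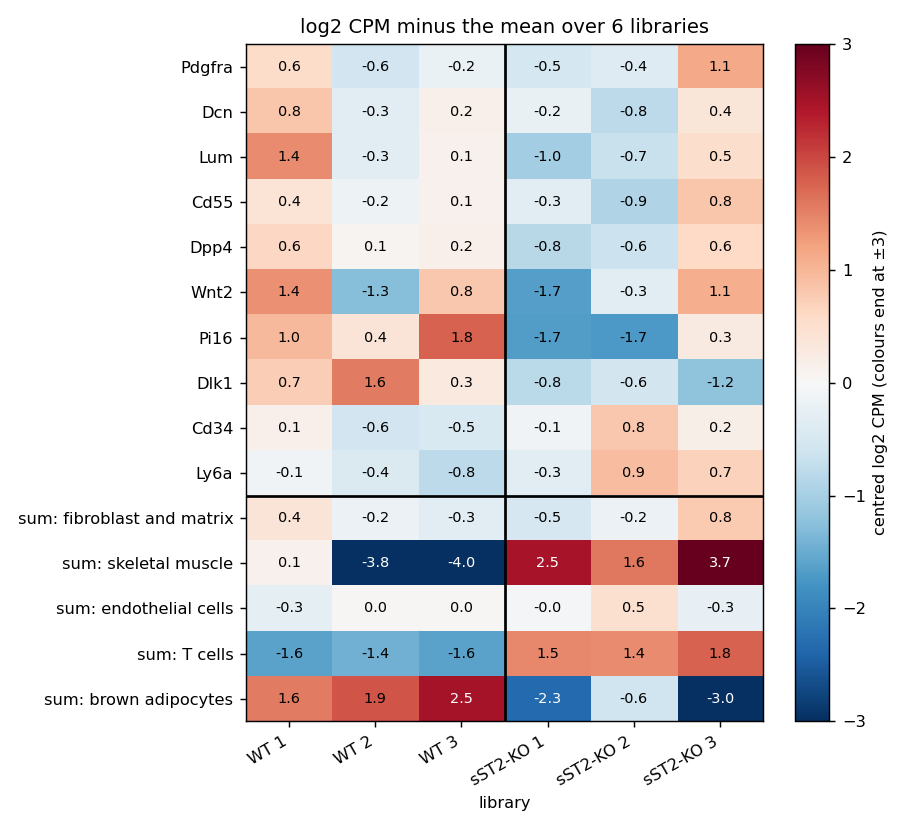
Log2 CPM of each gene (rows) in each library (columns), minus its mean over the 6 libraries, with the summed CPM of 5 marker lists below the line. Red is above and blue below the mean, and colours end at ±3. The rows from Pdgfra to Wnt2 are reddest in WT 1 and in KO 3 within their groups, Pi16 and Dlk1 are blue in most or all KO libraries, and Cd34 and Ly6a are reddest in KO 2.

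The genes were also expressed per count of Pdgfra, a ratio chosen after the values were seen. Only a difference that a gene shares with Pdgfra cancels in it, and Pdgfra did not stand for all fibroblast RNA. Dcn was at 10.68 to 11.52 counts per Pdgfra count in WT and at 11.28, 6.841 and 5.297 in KO 1 to KO 3. On this scale Pi16 was at 0.835, 1.22 and 2.44 counts per Pdgfra count in WT 1 to WT 3 and at 0.284, 0.246 and 0.344 in KO 1 to KO 3. By the means of log2 ratios, used for all folds of ratios here, it was 4.69-fold lower in sST2-KO. The KO libraries now lay close together, including KO 3, and were far below the WT libraries. Lum was at 2.30, 1.48 and 1.57 counts per Pdgfra count in WT and at 0.889, 1.04 and 0.830 in sST2-KO, 1.91-fold lower, again without overlap.

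Dpp4 was at 0.207, 0.315 and 0.255 counts per Pdgfra count in WT and at 0.163, 0.167 and 0.139 in sST2-KO, a log2 difference of -0.72. For Dlk1 the ratios were 0.0587, 0.230 and 0.0724 in WT and 0.0420, 0.0455 and 0.00990 in sST2-KO, 3.72-fold lower (2.27-fold without KO 3 and 2.45-fold without WT 2). These 4 of the 9 ratios did not overlap between the groups, where 13.8% of all genes did not. Each of the 4 gave p = 0.1 in an exact two-sided permutation test, the smallest that 3 against 3 libraries allow. Any ratio without overlap gives this value, so the test adds nothing to the lack of overlap. Pdgfra itself was at 89.8 CPM in KO 3 against 28.2 and 31.3 CPM in KO 1 and KO 2, which lowers every ratio of KO 3. All 9 ratios share Pdgfra as denominator, so they are not independent of one another. The other 5 ratios, those of Cd34, Ly6a, Cd55, Wnt2 and Dcn, overlapped.

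Against Dcn in place of Pdgfra, 2 of 9 ratios did not overlap, with 23.5% among all genes. These were Pi16, with a log2 difference of -1.66, and Cd34, with one of 1.02. Pi16 was separated on both scales and in CPM. Dlk1 was separated in CPM and against Pdgfra but not against Dcn, and Dpp4 and Lum were separated only against Pdgfra.

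**Figure D4:**
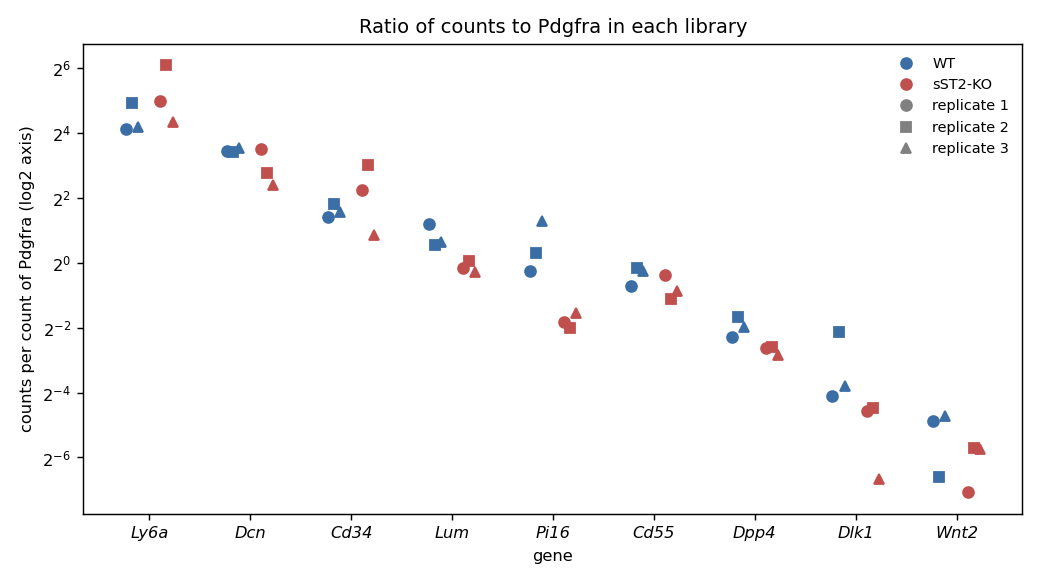
Counts of 9 genes per count of Pdgfra in the same library (vertical axis, log2), for WT and sST2-KO with 1 point per library. Pi16, Dpp4, Lum and Dlk1 have every sST2-KO point below every WT point, and the 3 sST2-KO points of Pi16 lie between 0.246 and 0.344.

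Genes around the 10 were read from lists of the same stromal cells. Interstitial progenitor genes, beside Dpp4, Pi16, Cd55 and Wnt2, had 12 members tested, of which 1 was called higher and 1 lower. Their median log2 fold change was -0.21 (0.044 without KO 1 and -0.54 without KO 3). Without KO 3, edgeR called 0 of them higher and 2 lower. Tnxb, a tenascin of loose connective tissue, fell by 1.16 on the log2 scale (SE 0.33, adjusted p = 0.0445 by edgeR), from 134 to 190 CPM in WT to 42.0 to 98.5 CPM in sST2-KO. Its call was lost with total counts (-0.91, adjusted p = 0.0983 by edgeR) and without any 1 library other than KO 3 (0.0673 to 0.115). Limch1, a regulator of the actomyosin skeleton, rose by 1.55 (SE 0.40, adjusted p = 0.0366 by edgeR), and this call was lost without any 1 library other than KO 2 (0.0680 to 0.132).

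Committed preadipocyte genes had 12 members tested with 1 called higher and none called lower, and a median of -0.37 in log2 fold change. At an unadjusted p under 0.05 by edgeR, 1 was higher and 3 were lower. The groups did not overlap in 1 higher gene and 4 lower ones, against 21.8% and 19.7% of all genes. These 4, named after their values were seen, were Cxcl14, Fabp4, Pparg and Cd36. The called gene was Icam1, an adhesion protein that endothelial cells and leukocytes also make, which was at 34.0 to 44.3 CPM in WT and 80.1 to 113 CPM in sST2-KO. It rose by 1.25 on the log2 scale (SE 0.21, adjusted p = 0.0148 by edgeR, 0.0669 without WT 3). A list of 6 adipocyte markers, Adipoq among them, summed to 6666 to 11012 CPM in WT and 2465 to 5240 CPM in sST2-KO. The fitted change was below 0 in 5 of these markers, and edgeR called 0 higher and 1 lower (16.7%, against 7.10% of all genes). The part of adipocytes in the levels of Cxcl14, Fabp4, Pparg and Cd36 was not tested. The genes of stromal cells that carry Cd142 (F3) had 7 members tested and none called by edgeR or DESeq2, with 2 lower at an unadjusted p under 0.05 and a median of -0.69.

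Among 14 regulators of preadipocytes 2 were called higher and none lower, and the median log2 fold change was 0.20. Zfp521, a zinc finger protein that opposes adipocyte formation, was at 1.48 to 4.20 CPM in WT and 5.92 to 13.2 CPM in sST2-KO. It rose by 2.02 (SE 0.50, adjusted p = 0.0318 by edgeR), and missed the threshold without WT 2, WT 3, KO 2 or KO 3 (0.0732 to 0.118). The other, Gata3, is also a T cell regulator, and had 2 to 6 counts in WT and 9 to 19 in sST2-KO. Gata3 was not called by DESeq2 (adjusted p = 0.118) or by edgeR without any 1 library (0.0758 to 0.167).

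Fibroblast and matrix genes had 28 members tested, of which 2 were called higher and 1 lower, and their median log2 fold change was 0.11. This median was -0.70 without KO 3 and 0.42 without WT 1, and without WT 3 edgeR called 0 of these genes. S100a4, a calcium-binding protein of fibroblasts and leukocytes, was at 9.62 to 19.1 CPM in WT and 45.6 to 89.3 CPM in sST2-KO, and rose by 2.05 (SE 0.36, adjusted p = 0.0154 by edgeR, 0.0650 without WT 3). The other riser, Thy1, is made by T cells as well and went from 21.3 to 39.8 CPM in WT to 68.8 to 120 CPM in sST2-KO, a call lost without WT 2 (adjusted p = 0.0566 by edgeR) or WT 3 (0.0745). Lama2, a laminin chain of muscle and stromal basement membranes, fell by 1.47 (SE 0.33, adjusted p = 0.0248 by edgeR), but not past the threshold without WT 3 or any 1 KO library (0.0511 to 0.0796). Cygb, a globin of fibroblasts, passed the test at a change below 2-fold, -0.84, though not without WT 2 or WT 3. Gata3, Thy1 and Cygb were picked for naming after their values were seen.

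Over all these wider and pathway lists 105 genes were tested. Of them 7 (6.67%) were called higher and 2 (1.90%) lower, against 9.04% and 7.10% of all genes, and the median log2 fold change was -0.18. Icam1, Gata3, Thy1 and S100a4 are also made by leukocytes, whose T cell markers were higher in every KO library, and neutrophil markers summed to 30.6 to 132 CPM in WT and 143 to 687 CPM in sST2-KO. The part of leukocytes in these values was not tested.

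**Figure D5:**
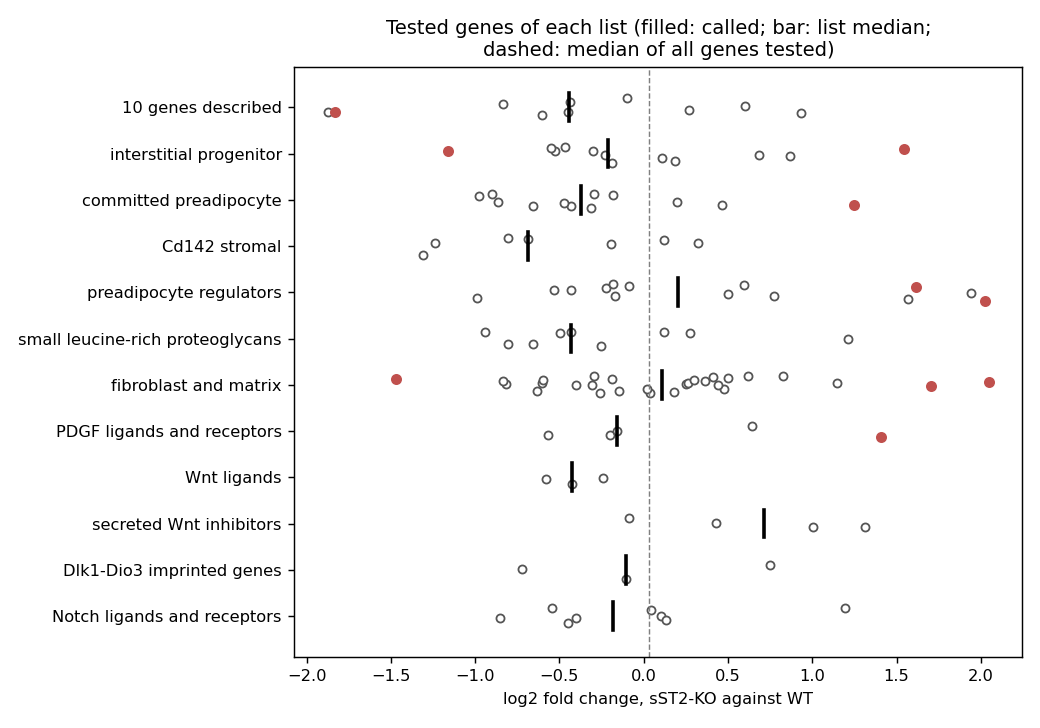
Log2 fold change of sST2-KO against WT (horizontal axis) of each tested gene in the 10 genes and in 11 lists of stromal and pathway genes. Filled points passed the call, bars are list medians and the dashed line is the median of all genes tested, 0.034. Filled points are few in each list, and lie to the right except Dlk1, Tnxb and Lama2.

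The gene most like each of the 10 in its profile over the 6 libraries was found by the root mean square (RMS) distance of centred log2 CPM, among the 11949 other genes whose log2 CPM averaged 2 or more (11950 for Wnt2 and Dlk1, which are below this level). The nearest to Pdgfra was Mxra8, a matrix-associated membrane protein of fibroblasts, at 0.142, and the nearest to Dpp4 was Mmp2, a gelatinase, at 0.109. Lum was nearest to Ogn, another small leucine-rich proteoglycan, at 0.149, and Dcn to Zfp780b at 0.101. Cd34 was nearest to Gja5, a connexin of arterial endothelium, at 0.110, and its second nearest was Gm16897, which overlaps it on the opposite strand and can share its reads.

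Ly6a was nearest to Nmi, an interferon-induced gene, at 0.0766. For Nmi the levels were 24.2 to 34.0 CPM in WT and 33.2 to 70.5 CPM in sST2-KO, with KO 1 again inside the WT range. Cd55 was nearest to Cpt1c at 0.152, Wnt2 to Fndc1 at 0.323, Dlk1 to Bhlhb9 at 0.163 and Pi16 to LOC108168349 at 0.269. Such distances describe these 6 libraries, which share depth and tissue composition.

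Within the 10, the closest pairs were Cd55 with Dcn at an RMS distance of 0.275, Cd55 with Dpp4 at 0.280 and Cd34 with Ly6a at 0.294. The farthest were Pi16 with Ly6a at 1.70 and Pi16 with Cd34 at 1.60.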

How the data were processed

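The libraries were made from poly-A RNA of BAT and read as paired ends, 1 library per mouse. The authors checked the reads with FastQC 0.12.1 and aligned them to mm39 with HISAT2 2.2.1 (versions from the submitters' processing notes). They deposited raw counts per gene symbol, made with htseq-count. Whether the strand was used is not given in the sources used here, so genes that overlap on opposite strands can share reads. Sample labels gave the groups and replicate numbers, and 0 columns were unused. Symbols turned into dates (27 rows) stayed in the tests.

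Analysis was done with edgeR 4.0.16 in R 4.3.3. Genes were kept by filterByExpr (14542), scaled by TMM and tested with glmQLFit and glmQLFTest, sST2-KO against WT with no covariate. The p values were adjusted by Benjamini-Hochberg over all genes kept. The SE is the size of the log2 fold change over the square root of F. CPM are TMM-normalized, and ratios to Pdgfra or Dcn are of counts. Results were recomputed with DESeq2 1.42.0, with RLE or total-count scaling, without the filter, with a minimum of 10 counts in each library, with robust dispersions, with a replicate block and without each library. Chosen after the values were seen were the ratios to Pdgfra and to Dcn, the removal of WT 1 and KO 3, and canonical transcript length.

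The 10 genes, the lists and the tests were chosen with earlier results of these data known. Genes named by rule beside the 10 are the called genes with the largest rise and fall of each list (mean log2 CPM of at least 1), all tested PDGF and imprinted-cluster genes, the nearest profile of each, Il1rl1 and Ucp1. Others were named outside this rule. Of these, Wnt4, Wnt9b, Wnt2b, Wnt8b, Frzb, Notch2, Gata3, Thy1, Cygb, Cxcl14, Fabp4, Pparg and Cd36 were picked after their values were seen. The steps were tested on simulated data. No library was a copy of another (chi-square per degree of freedom 36.7 to 104 within groups). Gene positions are from GENCODE on GRCm39, the build of the files, and promoter windows from RefSeq on GRCm38.p6. The p-values set the difference between the groups against the spread between libraries of 1 mouse each. That spread also holds the differences in muscle and liver RNA given above.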

Additional observations from a re-analysis of the deposited data

How the results depend on the processing

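The numbers of the replicates did not pair the libraries. Deviations from the group means correlated at -0.055, 0.21 and -0.31 for numbers 1, 2 and 3, so the replicate block is only an alternative. With the replicate block edgeR called 0 genes higher and 0 lower, where 4623 had an unadjusted p under 0.05, against 1315 and 1033 without it. It also left 0 of the 10 genes called lower and 0 and 0 of the wider and pathway lists, against 1, 7 and 2. Leaving out 1 library in turn gave 36 to 1383 genes higher and 22 to 998 lower, least without WT 3. It gave 0 to 1 of the 10 genes lower, 0 to 6 list genes higher and 0 to 4 lower, and a list median of -0.36 to 0.018. Called lower were 2 of the 10 genes with no filter and with DESeq2, which added Pi16, and 0 with at least 10 counts in every sample, which did not test Dlk1. The median over the 10 genes stayed below 0, between -0.92 and -0.026 with 1 library left out.

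Scaling by total counts moved the median of all genes from 0.034 to 0.29, with 1840 called higher and 691 lower. The median of the 10 genes was then -0.18 and of the lists 0.085, with 1 list gene called lower, and the signs of Cd55 (0.18), Pdgfd (0.043), Pdgfrb (0.088) and Rian (0.14) turned. Without WT 1 and KO 3, 4 list genes were lower and Pdgfra was at -0.098. Over single libraries left out, log2 fold changes spanned -0.48 to 0.65 for Pdgfra, -0.74 to 0.19 for Cd55, -1.70 to 0.024 for Wnt2, -0.30 to 0.023 for Pdgfrb and -0.76 to 0.30 for Rian. The cause of these shifts was not tested. Depth limited Wnt2, with 3 to 22 counts a library, and Dlk1, with 9 to 67.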
